A study of Homo sapiens with 8 samples.

Results

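The genes described here are 10 genes of luminal urothelial differentiation, 7 transcription factors (PPARG, FOXA1, GATA3, ELF3, GRHL3, KLF5 and TBX3) and 3 uroplakins (UPK1B, UPK2 and UPK3A). They were picked by gene symbol from the 27475 human genes of the deposited table, and each symbol had 1 entry. RNA-seq was performed on RT112 and UM-UC-3, both established human bladder cancer cell lines, after knock-down of PAI-1. The 4 groups were RT112 with a pool of scrambled control siRNAs (RT112 Scr), RT112 with a pool of siRNAs against PAI-1 (RT112 siPAI-1), UM-UC-3 Scr and UM-UC-3 siPAI-1. Each pool held 3 siRNAs, and all cells were transfected in the same way, with 100 pmol of siRNA for 72 h, and no untransfected cells are among the groups. Each group had 2 libraries, numbered replicate 1 and 2, and each line stands for 1 tumor, so a difference between the lines is one between these lines and not between classes of tumors. The study describes independent replicate knock-down experiments, in a number that differs from the libraries of a group. The labels do not tie the libraries to these experiments, so p-values measure the spread between these samples, which may in part be technical.

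The urothelium renews from basal cells, which give rise to intermediate cells and to the luminal umbrella cells that face the urine. Luminal differentiation is driven by the nuclear receptor PPARG, which binds DNA together with RXRA, and by the transcription factors FOXA1, GATA3, ELF3, GRHL3 and KLF5. The uroplakins are membrane proteins that assemble into plaques on the umbrella cell surface, with UPK1A paired to UPK2 and UPK1B paired to UPK3A. High PPARG, GATA3, FOXA1 and uroplakin levels mark luminal bladder tumors, and keratins such as KRT5 and KRT14 mark basal ones.

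Values are TPM (transcripts scaled to a fixed total per library), which correct the reads for gene length and give every library an equal sum, so levels may be compared between genes. TPM values carry no depth. From the steps in the FPKM values the libraries were estimated to hold 29.2 to 34.1 M reads (M for mega). Epithelial markers (EPCAM, CDH1 and 4 keratins) summed to 10770 to 12250 TPM in RT112 and to 218 to 237.1 TPM in UM-UC-3, where EPCAM and CDH1 were each under 1 TPM in every library. Mesenchymal markers, with vimentin (VIM) as the most abundant, summed to 3015 to 3304 TPM in UM-UC-3 and to 72.59 to 147.4 TPM in RT112, and 4 of the 6 were lower in RT112 Scr, whereas FN1 and CDH2 were higher. Markers of leukocytes, endothelial cells and adipocytes summed to at most 2.35 TPM in any library, and those of fibroblasts to 17.45 to 25.13 TPM in RT112 and 4.37 to 6.54 TPM in UM-UC-3. Among the 8 libraries RT112 siPAI-1 replicate 1 and UM-UC-3 Scr replicate 1 stood apart for several of the 10 genes, and values without them are given beside the results.

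Of the 10 genes, 7 had a promoter window in the RefSeq table (GRCh38.p14). The 250 bases before the annotated start are printed for ELF3, UPK1B and FOXA1, the genes with a single window that were higher in RT112 in both comparisons of the lines below, to show what lies directly upstream of the genes that separated the lines. They run 5′ to 3′ on the strand of the gene, and capitals mark the matches to the motifs searched. The windows lie at chr1:202010337-202010586 (ELF3, plus strand), chr3:119173348-119173597 (UPK1B, plus strand) and chr14:37595250-37595499 (FOXA1, minus strand).
ELF3: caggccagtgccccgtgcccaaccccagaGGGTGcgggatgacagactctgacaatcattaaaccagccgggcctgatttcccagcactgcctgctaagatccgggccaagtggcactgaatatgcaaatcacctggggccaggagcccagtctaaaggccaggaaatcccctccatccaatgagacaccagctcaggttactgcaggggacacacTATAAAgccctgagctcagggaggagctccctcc
UPK1B: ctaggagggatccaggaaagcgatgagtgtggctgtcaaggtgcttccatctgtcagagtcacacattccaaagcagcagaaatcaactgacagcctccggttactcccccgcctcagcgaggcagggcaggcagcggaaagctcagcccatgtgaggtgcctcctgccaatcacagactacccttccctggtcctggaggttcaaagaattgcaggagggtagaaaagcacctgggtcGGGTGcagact
FOXA1: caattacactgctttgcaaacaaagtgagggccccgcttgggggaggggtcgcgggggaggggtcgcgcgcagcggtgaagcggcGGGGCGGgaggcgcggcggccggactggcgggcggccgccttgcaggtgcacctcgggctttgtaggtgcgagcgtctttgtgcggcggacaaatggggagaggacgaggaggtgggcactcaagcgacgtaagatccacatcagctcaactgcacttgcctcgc
The letters searched on both strands stand for factors of the same families as the genes described. GATA factors were searched as AGATAA. For FOXA factors the letters were TGTTTAC. ETS factors, which include ELF3, were searched as AGGAAG. For Grainyhead factors, which include GRHL3, they were AACCGGTT and a looser AACNNGTT. KLF factors were searched as CACCC, and as GGGGCGG in a separate search. For T-box factors, which include TBX3, the letters were AGGTGTGA. PPARG with RXRA was searched as AGGTCA, also as a direct repeat of it spaced by 1 base, and the TATA box by its letters TATAAA. ELF3 held TATAAA 29 to 34 bases before its start, letters that 10.8% of the 34788 windows of the same length in the table hold. ELF3 and UPK1B each held CACCC on the opposite strand (read as GGGTG), 217 to 221 bases before the start of ELF3 and 7 to 11 bases before that of UPK1B, as 54.7% of all windows do. FOXA1 held GGGGCGG 159 to 165 bases before its start, found in 29.2% of windows. The GATA, FOXA, ETS, Grainyhead, T-box and PPARG letters were not in these 3 windows, and across all windows their shares ran from 0.0115% (the direct repeat of AGGTCA) to 28.7% (AGGAAG).

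The question of the first comparison was how the luminal genes stand in the control cells of the lines. Of the 9 genes tested, 8 were higher in RT112 Scr than in UM-UC-3 Scr and 0 were lower, where 25.3% of the 19201 genes tested were called higher and 26.3% lower (limma on log2(TPM + 0.1), Benjamini-Hochberg adjusted p under 0.05). The 8 were PPARG, FOXA1, GATA3, ELF3, GRHL3, KLF5, UPK1B and UPK2. Of genes averaging at least 1 TPM, 31.7% were called higher. TBX3 did not pass the test, and UPK3A was listed at 0 in all 4 libraries and could not be tested. The median log2 fold change of the 9 genes was 6.41, and 6.67 without GRHL3, against -0.06 over all genes tested. In such bulk libraries, fewer cells that express a gene and less of its RNA per cell cannot be told apart. Without RT112 Scr replicate 1 or without RT112 Scr replicate 2, fewer of these genes were called, and fewer of all genes. Either fit leaves 1 RT112 library, with no spread of its own. The log2 fold changes stayed nearly the same, at 9.87 in both for ELF3, 6.05 and 6.01 for KLF5, 10.6 and 10.5 for UPK1B, and 7.71 and 7.38 for UPK2. Without UM-UC-3 Scr replicate 1 those of the same genes were 8.84, 5.56, 9.42 and 8.08.

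**Figure D1:**
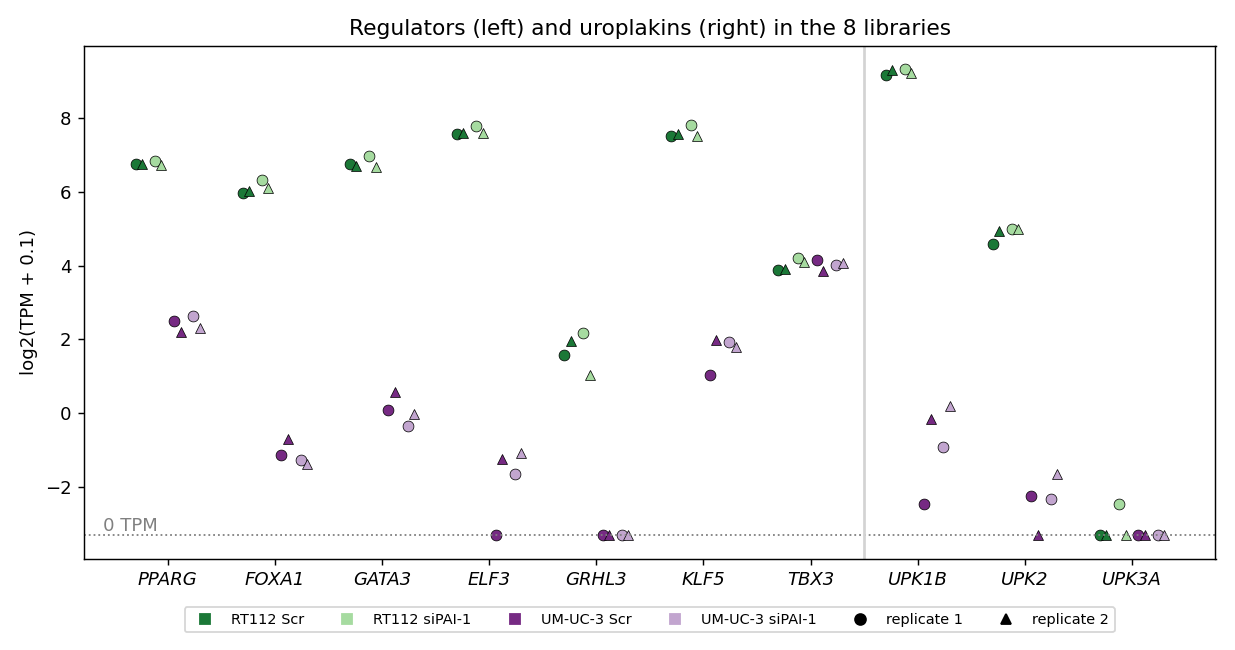
Level of each gene in each of the 8 libraries, as log2(TPM + 0.1), with RT112 in green, UM-UC-3 in purple, Scr in the darker and siPAI-1 in the lighter shade, circles for replicate 1 and triangles for replicate 2. The RT112 libraries lie above the UM-UC-3 libraries for all genes but TBX3, where the lines overlap, and UPK3A, which was listed at 0 except for 0.08 TPM in RT112 siPAI-1 replicate 1. Over all genes tested, both RT112 libraries were above both UM-UC-3 libraries for 34.6% with Scr and for 36.6% with siPAI-1.

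Gene positions are those of RefSeq on GRCh38.p14. PPARG (ENSG00000132170.19, chromosome 3, 12287368 to 12434344) encodes the nuclear receptor that heads the luminal program. It was 109.14 and 107.97 TPM in RT112 Scr and 5.56 and 4.53 TPM in UM-UC-3 Scr. The RT112 libraries lay close together and far above those of UM-UC-3, a 21.5-fold ratio of means (log2 fold change 4.41 ± 0.13 SE, limma adjusted p = 0.000309). Among the 7 called genes with a value above 0 in UM-UC-3 Scr, PPARG had the smallest difference: UM-UC-3 held 4.14% to 5.52% of the mean RT112 level across its 4 libraries, and an estimated 449.0 to 636.2 reads stood behind each of these values.

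GATA3 (ENSG00000107485.15, chromosome 10, 8045333 to 8075198), a zinc finger factor used as a marker of urothelial tumors, was 108.72 and 104.52 TPM in RT112 Scr and 0.96 and 1.38 TPM in UM-UC-3 Scr, which is 91.1-fold (log2 fold change 6.41 ± 0.20 SE, limma adjusted p = 0.000316). FOXA1 (ENSG00000129514.5, chromosome 14, 37589552 to 37595249), a pioneer factor that opens chromatin for other regulators, was 62.63 and 64.62 TPM against 0.35 and 0.51 TPM, 148-fold (log2 fold change 6.93 ± 0.21 SE, limma adjusted p = 0.000313). The RT112 Scr and UM-UC-3 Scr values did not overlap for either gene, which was common among all genes. Of the 19201 genes tested, 34.6% had both RT112 Scr libraries above both UM-UC-3 Scr libraries, and 37.7% had both below. PPARG and GATA3 stood at about the same level in RT112 Scr, with overlapping libraries, whereas in UM-UC-3 PPARG was above GATA3 in every library.

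KLF5 (ENSG00000102554.13, chromosome 13, 73054976 to 73077538), a zinc finger factor of epithelial growth and differentiation, was 183.64 and 188.65 TPM in RT112 Scr. In UM-UC-3 Scr it was 1.95 and 3.84 TPM (64.3-fold, log2 fold change 6.03 ± 0.34 SE, limma adjusted p = 0.000793). ELF3 (ENSG00000163435.15, chromosome 1, 202010587 to 202017183), an epithelial ETS factor, was 191.53 and 192.3 TPM in RT112 Scr, and in UM-UC-3 Scr it was listed at 0 in replicate 1 and at 0.32 TPM in replicate 2. The log2 fold change of ELF3 was 9.87 ± 0.74 SE (limma adjusted p = 0.00138), and it depends on the pseudocount, being 7.39 with 1 TPM and 11.7 with 0.01 TPM. The uneven UM-UC-3 replicates gave ELF3 a wider interval (95%, 7.82 to 11.9) than PPARG (4.06 to 4.76).

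GRHL3 (ENSG00000158055.15, chromosome 1, 24319357 to 24364482), a Grainyhead factor of epithelial barrier formation, was the lowest of the factors in RT112, at 2.88 and 3.81 TPM for Scr and 4.37 and 1.94 TPM for siPAI-1. It was listed at 0 in all 4 UM-UC-3 libraries, so no fold change is given (limma adjusted p = 0.000939 for the Scr libraries). An estimated 114.4 to 281.4 reads stood behind the RT112 values of GRHL3. Its relatives in the Grainyhead family, named after their values were seen, were also higher in RT112 Scr: GRHL2 had a mean of 78.5 TPM against 0.14 TPM (limma adjusted p = 0.00163) and GRHL1 had 17.5 TPM against 1.56 TPM (adjusted p = 0.000727).

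TBX3 (ENSG00000135111.14, chromosome 12, 114670255 to 114684175), a T-box factor that mainly represses its targets, behaved otherwise. It was 14.75 and 15.03 TPM in RT112 Scr and 17.76 and 14.4 TPM in UM-UC-3 Scr, and the RT112 values lay between those of UM-UC-3. The log2 fold change was -0.10, with a 95% interval from -0.48 to 0.28 (limma adjusted p = 0.567). Without UM-UC-3 Scr replicate 1 the value was 0.05. In the siPAI-1 libraries TBX3 was 18.54 and 16.97 TPM in RT112 and 15.98 and 16.75 TPM in UM-UC-3 (log2 fold change 0.12, interval -0.15 to 0.38, limma adjusted p = 0.37). TBX3 was the most abundant of the 10 genes in UM-UC-3 and the eighth in RT112.

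UPK1B (ENSG00000114638.7, chromosome 3, 119173598 to 119205143), a tetraspanin of the plaque, was the most abundant of the 10 genes in RT112, at 580.28 and 640.01 TPM with Scr. By mean TPM over the RT112 libraries it ranked 235 among the 27475 genes, where ELF3 ranked 823 and KLF5 ranked 843. In UM-UC-3 Scr UPK1B was 0.08 and 0.79 TPM. The log2 fold change was 10.6 ± 0.82 SE (limma adjusted p = 0.00148), with 8.78 at a pseudocount of 1 TPM. As for ELF3, UM-UC-3 Scr replicate 1 was the lower of the replicates by far, and without it the log2 fold changes were 9.42 for UPK1B and 8.84 for ELF3 (limma adjusted p = 0.0122 for both).

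UPK2 (ENSG00000110375.2, chromosome 11, 118956298 to 118958559) was 24.08 and 30.33 TPM in RT112 Scr and 0.11 and 0 TPM in UM-UC-3 Scr (log2 fold change 7.55 ± 0.45 SE, limma adjusted p = 0.000873). At an estimated 0 to 4.0 reads in each UM-UC-3 library the UPK2 fold change rests on the pseudocount, being 4.73 with 1 TPM and 9.61 with 0.01 TPM, and its size in UM-UC-3 is not measurable at this depth. UPK3A (ENSG00000100373.9, chromosome 22, 45284949 to 45295874) was listed at 0 in 7 libraries and at 0.08 TPM in RT112 siPAI-1 replicate 1, an estimated 1.7 reads.

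In RT112 the RNAs of the partners in the plaque stood at unequal levels, and their proteins are not part of these data. UPK1B was at 580.28 TPM or more in every RT112 library, while its partner UPK3A was listed at 0 or near it. UPK3B, a homologue of UPK3A that can also pair with UPK1B, was 101.82 and 111.01 TPM in RT112 Scr and 0.11 and 0.28 TPM in UM-UC-3 Scr (log2 fold change 8.56 ± 0.34 SE, limma adjusted p = 0.000457). UPK2 was at 24.08 to 31.78 TPM over the RT112 libraries, and its partner UPK1A was 0.36, 0.54, 1.96 and 0.57 TPM in the same libraries. UPK3BL, a gene with near-identical copies whose reads the counting could split, was 19.58 and 20.3 TPM in RT112 Scr against 2.8 and 0 TPM in UM-UC-3 Scr. Of these other uroplakins, UPK3B alone passed the test in the Scr libraries, and UPK1A (limma adjusted p = 0.0584) and UPK3BL (0.0695) did not.

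The order of levels differed between the lines. In RT112 Scr it ran UPK1B (610.1 ± 42.2 TPM, SD, n = 2), ELF3 (191.9 ± 0.54), KLF5 (186.1 ± 3.5), PPARG (108.6 ± 0.83), GATA3 (106.6 ± 3.0), FOXA1 (63.6 ± 1.4), UPK2 (27.2 ± 4.4), TBX3 (14.9 ± 0.20), GRHL3 (3.34 ± 0.66) and UPK3A (0). ELF3 and KLF5 overlapped when the siPAI-1 libraries were included, and PPARG and GATA3 overlapped in Scr; the other neighbours did not overlap. In UM-UC-3 Scr the order began with TBX3 (16.1 ± 2.4 TPM), PPARG (5.04 ± 0.73), KLF5 (2.90 ± 1.3) and GATA3 (1.17 ± 0.30), followed by genes under 1 TPM, of which UPK1B overlapped with FOXA1, ELF3 and UPK2.

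The same comparison was repeated in the siPAI-1 libraries, which share none with the Scr comparison. The same 8 genes were higher in RT112 and 0 were lower of 10 tested, where 26.2% of 19359 genes were called higher and 26.1% lower. Without RT112 siPAI-1 replicate 1, 8 genes passed as well. Log2 fold changes were 4.33 ± 0.14 SE for PPARG, 7.02 ± 0.18 for GATA3, 7.56 ± 0.17 for FOXA1, 5.82 ± 0.14 for KLF5, 9.06 ± 0.23 for ELF3, 9.64 ± 0.40 for UPK1B and 6.97 ± 0.30 for UPK2 (limma adjusted p from 0.000272 to 0.000553). The adjusted p of GRHL3 was 0.0028 (limma), and it was 0.0843 without UM-UC-3 siPAI-1 replicate 1 and 0.0838 without UM-UC-3 siPAI-1 replicate 2. UPK3A did not pass (adjusted p = 0.397), although a call appeared without RT112 siPAI-1 replicate 2 (limma adjusted p = 0.0131), a value that rests on the single entry of 0.08 TPM.

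**Figure D2:**
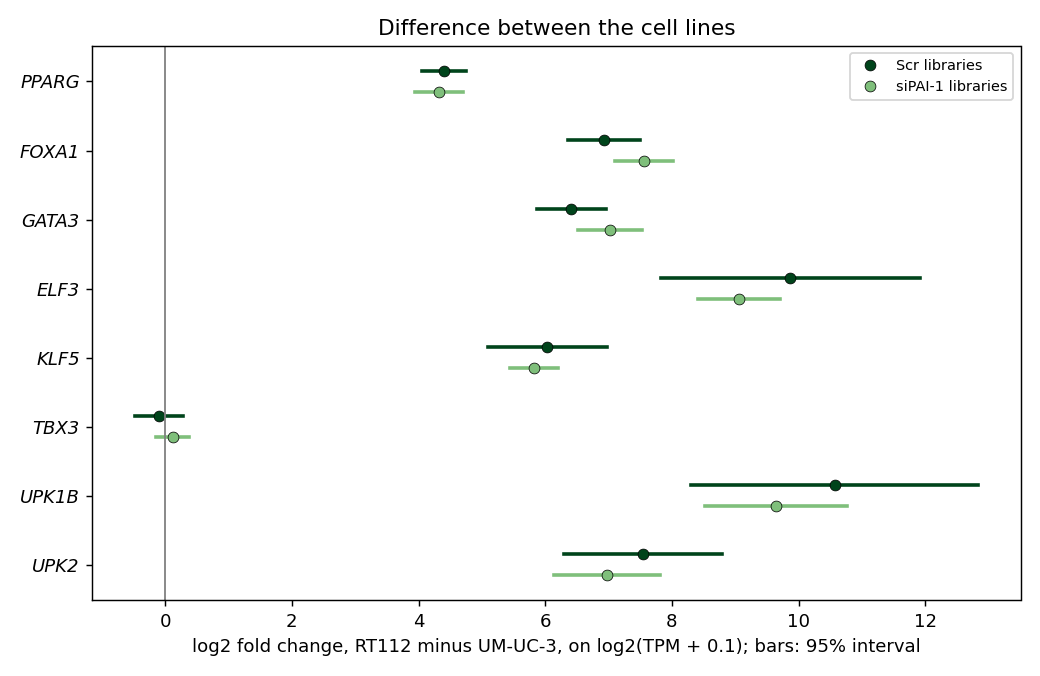
Log2 fold change of RT112 minus UM-UC-3 on the log2(TPM + 0.1) scale, with 95% intervals from limma, in Scr libraries (dark) and siPAI-1 libraries (light). The intervals of 7 genes lie above 0 in both, from 4.41 and 4.33 for PPARG to 10.6 and 9.64 for UPK1B, and those of TBX3 include 0. GRHL3 and UPK3A are left out because at least 1 group was listed at 0.

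Related genes were counted by list, beside the 25.3% of all genes called higher and the 26.3% called lower in RT112 Scr. Of 14 other luminal genes, 14 were higher in RT112 Scr, with a median log2 fold change of 4.12. The keratins KRT13, KRT7 and KRT19 were at 2788.45 to 4193.33 TPM there and at 0 to 10.45 TPM in UM-UC-3 Scr. KRT18 (2029 against 182.3 TPM) and ERBB2 (49.5 against 17 TPM), named after their values were seen, were well above 0 in both lines. Basal genes were also higher: 7 of 9 tested, among them KRT5 (831.2 against 0.895 TPM) and KRT6A (249.4 against 0.21 TPM), whereas CD44 differed little in size (678.6 against 552.3 TPM, limma adjusted p = 0.0193). Of 10 tight junction and barrier genes 7 were higher, led by CLDN4 (228.3 against 0.61 TPM), and TJP1 and OCLN did not pass. Of 24 tested relatives of the 7 factors, 15 were higher and 6 lower in RT112, the latter a share near that of all genes. RXRA, the partner of PPARG, was higher (115.2 against 27.2 TPM, 4.23-fold, limma adjusted p = 0.000354), as was ELF1 (54.4 against 25.7 TPM), and KLF6 was lower (22.98 against 93.06 TPM, adjusted p = 0.00164). EHF, an epithelial ETS factor like ELF3, was named after its values were seen and had 41.8 against 0.13 TPM (limma adjusted p = 0.000886).

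Known target genes of PPAR receptors were counted in the same way. Of 9 tested in the Scr libraries, 4 were higher and 3 lower in RT112, where 25.3% and 26.3% of all genes were, and with so few genes nothing is read from these counts about the list. FABP4, a fatty acid binding protein and a classical PPARG target, was 3543.73 and 3776.75 TPM in RT112 Scr and 1.13 and 5.14 TPM in UM-UC-3 Scr (limma adjusted p = 0.00119). Also higher were ACSL1, which activates fatty acids (1.61-fold), and PDK4, a kinase that restrains glucose oxidation. PDK4 was listed at 0 in UM-UC-3 Scr and was only 0.14 and 0.24 TPM in RT112 Scr, near the pseudocount of 0.1 TPM. The genes that were lower, named with those just given after their values were seen except FABP4 and CPT1A, were PLIN2, a lipid droplet coat protein (0.11 against 43.9 TPM), ANGPTL4, a secreted inhibitor of lipoprotein lipase (0.10 against 39.0 TPM), and CPT1A of mitochondrial fatty acid import (13 against 53 TPM), with limma adjusted p of 0.000314, 0.000331 and 0.000472. In the siPAI-1 libraries 6 of the 9 were higher and 3 lower, where 26.2% and 26.1% of all genes were. Markers of adipocytes, which also express FABP4 and PPARG, summed to at most 0.25 TPM in RT112.

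The genes whose pattern over the 8 libraries lay nearest to each member were found by the Euclidean distance of mean-centred log2(TPM + 0.1) over the 12803 genes that averaged at least 1 TPM. They were CITED4 and SLC29A3 for PPARG, AKR1C3 and RGS16 for GATA3, CDC42BPG and ANKRD22 for FOXA1, TRIM29 for ELF3, and TMPRSS4 and KRT19 for UPK1B. The distances of these genes ran from 0.32 (PPARG to CITED4) to 0.86 (UPK1B to KRT19) on the log2 scale. A gene near by this distance must differ between the lines by a similar amount, as CITED4 did (58.32 TPM in RT112 and 2.96 TPM in UM-UC-3). Whether such genes share regulation was not tested. For TBX3 the nearest were RPN2 and ING4, which like it differed little between the lines (RPN2 342.2 TPM in RT112 and 349.2 TPM in UM-UC-3).

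The second question was whether the luminal genes moved with knock-down of PAI-1. In RT112, 0 of the 10 genes passed the test, as did 0% of the 18437 genes tested (limma, Benjamini-Hochberg adjusted p under 0.05). Without adjustment (p under 0.05), 0 of the 10 genes were higher or lower, where 3.35% of all genes were higher and 2.42% lower. Without UPK3A, 8 of the 9 log2 fold changes were positive, where 52.9% of all genes were, with a median of 0.11 against 0.01 over all genes. Without RT112 siPAI-1 replicate 1, 4 of the 9 were positive, where 51.5% of all genes were, and the median was -0.016. In the lists of related genes 0 passed in either line. In 4 genes (FOXA1, ELF3, TBX3 and UPK2) both siPAI-1 libraries were above both Scr libraries, where 18% of all genes were, and in 0 genes were both below, where 14.7% were.

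In RT112, FOXA1 went from 62.63 and 64.62 TPM (Scr) to 80.6 and 68.59 TPM (siPAI-1), a log2 fold change of 0.22 with a 95% interval from -0.03 to 0.48 (limma adjusted p = 0.838). Apart from UPK3A, whose 0.42 rests on the single entry of 0.08 TPM, TBX3 had the largest value, 0.25 (-0.03 to 0.53), from 14.75 and 15.03 TPM to 18.54 and 16.97 TPM. Neither value exceeded the spread of the replicates by the test. PPARG was 113.86 and 107.13 TPM with siPAI-1, on both sides of the narrow range with Scr, and its log2 fold change was 0.02 (-0.13 to 0.18). UPK1B, at 644.33 and 601.03 TPM with siPAI-1, gave 0.03 (-0.16 to 0.22). GRHL3, at 4.37 and 1.94 TPM, was the least settled of the genes in RT112 (-0.18, interval -1.39 to 1.03).

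**Figure D3:**
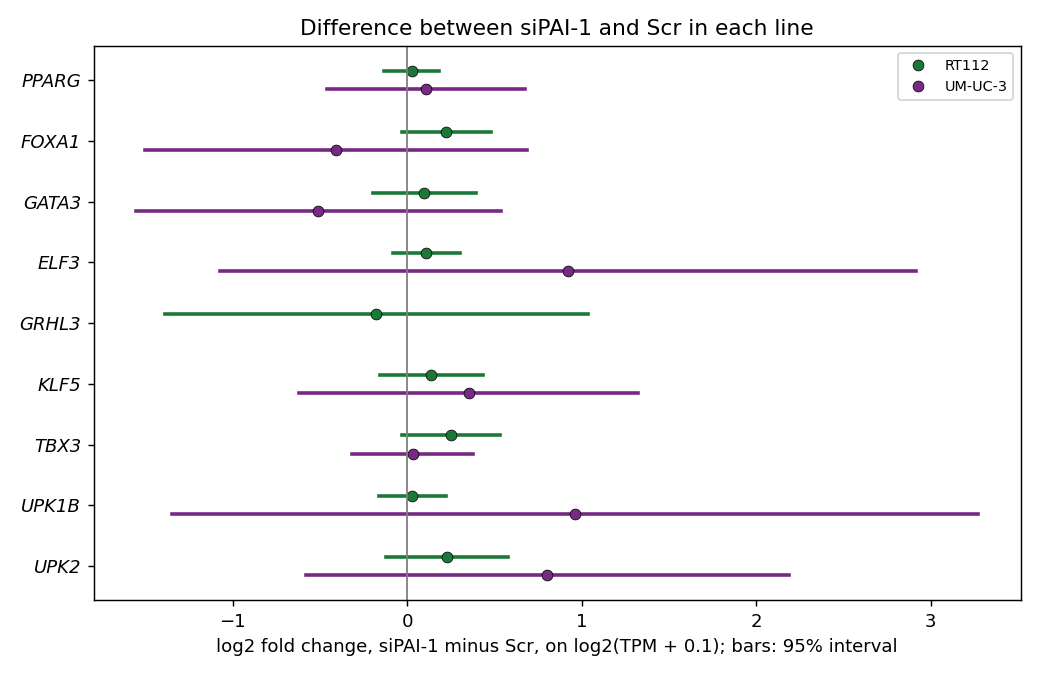
Log2 fold change of siPAI-1 minus Scr on the log2(TPM + 0.1) scale, with 95% intervals from limma, in RT112 (green) and UM-UC-3 (purple). All intervals include 0. In RT112 they run from -0.13 to 0.18 for PPARG and, as the widest there, from -1.39 to 1.03 for GRHL3, and in UM-UC-3 they are wide for genes at low levels, as for UPK1B from -1.35 to 3.27. GRHL3 has no value in UM-UC-3, where it was listed at 0, and UPK3A is left out.

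The replicates of RT112 siPAI-1 were not alike for these genes. Replicate 1 was the highest of the 4 RT112 libraries for 9 of the 9 genes that averaged at least 1 TPM, where it was the highest for 29.9% of 12198 such genes, a count made after the values were seen. KLF5, for example, was 227.62 TPM in replicate 1 and 184.13 TPM in replicate 2, which lay within the Scr range of 183.64 to 188.65 TPM. GATA3 was 126.5 TPM in replicate 1 and 102.97 TPM in replicate 2, below both Scr libraries. Without RT112 siPAI-1 replicate 1 the values of PPARG, GATA3, KLF5 and UPK1B were -0.02, -0.05, -0.02 and -0.02. Those of FOXA1, ELF3, TBX3 and UPK2 were 0.11, 0.03, 0.19 and 0.22, and that of GRHL3 was -0.74. None of these passed the test.

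Other genes moved with this library. UPK3B was 135.73 TPM there against 101.82 to 117.62 TPM in the other RT112 libraries, and of 13 other luminal genes averaging at least 1 TPM 8 were highest and 4 lowest in it, so this list went both ways. The 4 were KRT7 (3277.94 TPM against 4135.84 to 4193.33 TPM), CD24 (281.43 TPM against 426.64 to 537.71 TPM), KRT8 and KRT18, of which all but KRT7 were named after their values were seen. Basal genes were lowest in it for 7 of 7 that averaged at least 1 TPM, where 28.9% of all genes were, with KRT5 at 592.88 TPM against 783.75 to 878.71 TPM and KRT6A at 142.07 TPM against 211.11 to 263.93 TPM. FN1, the fibronectin gene, was 58.25 TPM there and 108.44 to 120.39 TPM in the other RT112 libraries. The part of this library in the knock-down values was measured only by leaving it out, and what sets it apart was not tested.

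**Figure D4:**
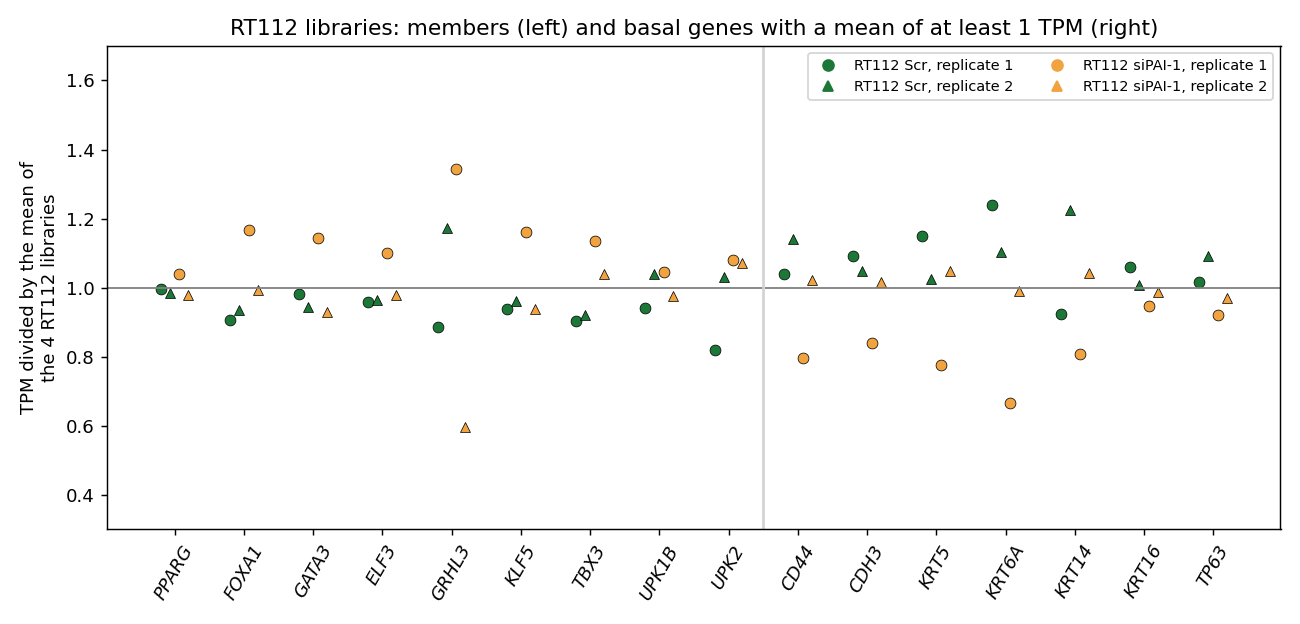
TPM of each RT112 library divided by the mean of the 4 RT112 libraries, for the 9 luminal genes (left) and the 7 basal genes averaging at least 1 TPM (right), Scr in green, siPAI-1 in orange, circles for replicate 1 and triangles for replicate 2. The orange circles are the highest points for 9 of 9 genes on the left and the lowest for 7 of 7 on the right.

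In UM-UC-3, 0 of the 8 genes tested passed, as 0% of 18528 genes did (limma, Benjamini-Hochberg adjusted p under 0.05), and GRHL3 and UPK3A were listed at 0 throughout. Without adjustment (p under 0.05), 0 of the 8 were higher or lower, where 2.6% of all genes were higher and 3.41% lower. PPARG was 5.56 and 4.53 TPM in the Scr libraries and 6.05 and 4.84 TPM in the others, a log2 fold change of 0.11 (interval -0.46 to 0.67). TBX3 gave 0.03 (-0.31 to 0.38). Both siPAI-1 libraries were below both Scr libraries for 2 genes, FOXA1 and GATA3, where 17.1% of all genes were, and above them for 0 genes, where 15.1% were. FOXA1 was 0.35 and 0.51 TPM against 0.31 and 0.28 TPM (-0.41, interval -1.5 to 0.69), and GATA3 was 0.96 and 1.38 TPM against 0.69 and 0.88 TPM (-0.51, interval -1.55 to 0.54). An estimated 19.6 to 39.1 reads stood behind each FOXA1 value, so counting error alone is wide at this level.

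The values of UPK1B, ELF3 and KLF5 in UM-UC-3 turned on 1 library. UPK1B was 0.08 TPM in Scr replicate 1 and 0.79, 0.43 and 1.05 TPM in Scr replicate 2 and the siPAI-1 libraries. ELF3 was 0, 0.32, 0.22 and 0.37 TPM and KLF5 1.95, 3.84, 3.72 and 3.35 TPM in the same order. In all of these genes Scr replicate 1 was the lowest and the other 3 libraries lay together. It was not the lowest for PPARG, TBX3, FOXA1, GATA3 and UPK2. Of the 12067 genes averaging at least 1 TPM in UM-UC-3, 18% were lowest in this library and 34.9% highest. For UPK1B, ELF3 and KLF5 the log2 fold changes with siPAI-1 were 0.96, 0.92 and 0.35. Without UM-UC-3 Scr replicate 1 they were -0.19, -0.12 and -0.12. For PPARG, TBX3, FOXA1 and GATA3 they were then 0.25, 0.18, -0.63 and -0.75, and UPK2 went from 0.80 to 1.34, so 3 of the 8 values were positive in place of 6.

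The same library was low for other genes that are abundant in RT112. Of the 299 genes averaging 500 TPM or more in RT112, 17 were under 1% of that level in UM-UC-3. This set was defined after the values were seen and includes UPK1B. Their median in UM-UC-3 Scr replicate 1 was 0.0286% of the RT112 level, with 5 listed at 0, and 0.13%, 0.133% and 0.148% in Scr replicate 2 and the siPAI-1 libraries. KRT13 was listed at 0 there and at 0.102% to 0.132% of its RT112 level in the other 3 libraries, and FABP4 was at 0.0286% there and 0.13% to 0.143% in the others. UPK1B was at 0.013%, 0.128%, 0.0698% and 0.17%, and as it belongs to the 17 genes its place in their range was fixed by the rule. ELF3 (0%, 0.16%, 0.11% and 0.185%), which is outside the set, stood in the same range. PPARG (4.14% to 5.52%), KLF5 (0.995% to 1.96%) and GATA3 (0.623% to 1.25%) were above it. The set held only genes with a mean under 1%, so for PPARG and KLF5 (means of 4.79% and 1.64%) this contrast was largely set by the rule. FOXA1 (0.405% to 0.738%) was within the range of the 17 genes in siPAI-1 replicate 1, where they reached 0.545%, and above it in the other 3 libraries. UPK2 ran from 0% to 0.747%. Whether RNA or reads from RT112 are part of these low values in UM-UC-3 was not tested.

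**Figure D5:**
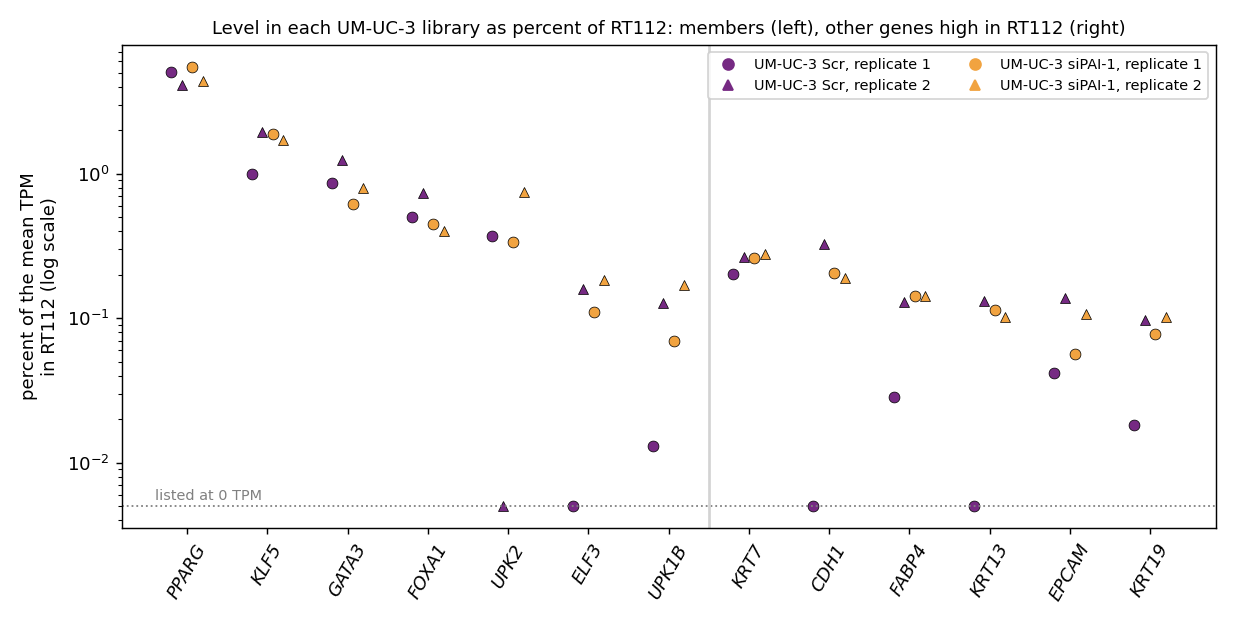
Level in each UM-UC-3 library as percent of the mean TPM of the 4 RT112 libraries, on a log axis, for 7 luminal genes (left) and for 6 other genes high in RT112 (right), Scr in purple, siPAI-1 in orange, circles for replicate 1 and triangles for replicate 2, with values of 0 on the dotted line. UPK1B and ELF3 lie between 0.0698% and 0.185% except in Scr replicate 1, which is lower, as it is for FABP4, KRT13 and KRT19, and PPARG lies between 4.14% and 5.52%.

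The difference of the knock-down effect between the lines was tested as an interaction of siRNA and cell line over all 8 libraries. It passed for 0 of the 10 genes and for 0% of 20274 genes (limma, Benjamini-Hochberg adjusted p under 0.05), with 0 of the 10 under 0.05 before adjustment, where 4% of all genes were higher and 2.76% lower. GRHL3 and UPK3A were listed at 0 in every UM-UC-3 library. Their difference only repeats the RT112 value and does not inform on a difference between the lines. The nearest to the threshold were FOXA1, with a difference of 0.63 (interval -0.03 to 1.29, adjusted p = 0.75), and GATA3, with 0.61 (-0.08 to 1.30, adjusted p = 0.776). They were 0.52 and 0.46 without RT112 siPAI-1 replicate 1, and 0.85 and 0.85 without UM-UC-3 Scr replicate 1. For PPARG the difference was -0.08 (-0.55 to 0.39) and for TBX3 it was 0.22 (-0.19 to 0.63).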

How the data were processed

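RNA-seq was performed on RT112 and UM-UC-3 cells with Scr or siPAI-1, 2 libraries per group and 8 in all. For each gene the authors deposited FPKM, which is relative to gene length and to the reads of the library, and TPM, which adds up to an equal total in each library. Both were rounded to 2 decimals and came from single reads of 75 bases in stranded mRNA libraries. The methods name cutadapt, STAR with hg38 and featureCounts. The submitters' processing notes list STAR 2.5.0, RSEM 1.2.25 and GRCh38, so which program made the values is not settled. Counts were not analysed here, and limma on TPM takes the place of the count-based test of the methods.

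The 92 ERCC entries were left out. Log2(TPM + 0.1) of genes that exceeded 0 TPM in any library of the fit was tested in limma 3.58.1 (R 4.3.3, lmFit and eBayes, trend on, two-sided), and p-values were adjusted by Benjamini-Hochberg over these genes. Fold changes on this scale understate changes of low genes. Each comparison used its own 4 libraries and the interaction all 8. The fit was checked for direction on simulated data, which do not show its power in these libraries. The genes and lists were chosen with earlier results of these data known. Named are the 10 genes, the 3 most abundant genes of each list by mean TPM, and for each member the 2 genes nearest in pattern, other names being marked. Some genes that this rule takes in, and the level of the knocked-down gene, are not reported here. An entry of 0 is given as listed at 0. Depth was estimated as the number between 20 and 45 M reads (M for mega) that brings FPKM values of short genes closest to whole reads, and a larger depth of the same steps would also be possible. Estimated reads of a gene follow from that depth and the length of the longest transcript, and they share the uncertainty of the depth. Where shorter transcripts of a gene were expressed, the length used makes its estimated reads too high. Alternatives were pseudocounts of 1 and 0.01 TPM, FPKM, rescaling by the median ratio, a minimum mean of 1 TPM, eBayes without trend, a replicate block, 1 fit of all 8 libraries, and each replicate left out. Plots used Python 3.11.15, pandas 2.3.3 and matplotlib 3.10.9. Locations and promoters came from RefSeq tables of GRCh38.p14.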

Additional observations from a re-analysis of the deposited data

Results flagged for a closer look

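FOXA1 had log2 fold changes of opposite sign in the lines, 0.22 in RT112 and -0.41 in UM-UC-3, and passed the test in neither. In RT112 both siPAI-1 libraries were above both Scr libraries (80.6 and 68.59 against 62.63 and 64.62 TPM), as for 18% of all genes. In UM-UC-3 both were below (0.31 and 0.28 against 0.35 and 0.51 TPM), as for 17.1% of all genes. An estimated 19.6 to 39.1 reads stood behind each UM-UC-3 value. FOXA1 was picked for these opposite directions after the values were seen. The difference of the log2 fold changes, RT112 minus UM-UC-3, was 0.6332, and it did not pass the test of the difference itself (limma interaction term, adjusted p = 0.75). Without RT112 siPAI-1 replicate 1 the RT112 value was 0.11 and the difference 0.52.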

How the results depend on the processing

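The count of genes higher in RT112 Scr was 8 under every alternative other than leaving out a replicate, and it was between 4 and 8 with a replicate left out, with 4 without RT112 Scr replicate 1 and 4 without RT112 Scr replicate 2. In the siPAI-1 libraries the count was 8, and 7 to 9 with a replicate left out. The knock-down comparisons and the interaction gave 0 under each alternative. Over all genes, the line comparisons called 9909 (Scr) and 10108 (siPAI-1), with 5698 to 6564 and 5294 to 7142 when a replicate was left out. The knock-down comparisons called 0, except 2 genes in RT112 in the fit of all 8 libraries and 1 gene in UM-UC-3 with a minimum mean of 1 TPM. The interaction called 0, 7 without trend, and 0 to 123 with a replicate left out. A library left alone in its group was assumed to vary like the other groups. Samples with the same number did not deviate together (r of 0.0142, -0.0364, -0.0431 and 0.0437 over 12803 genes in the 4 comparisons), so the numbers are taken to name the samples only. With a replicate block the counts were 8, 8, 0, 0 and 0 genes, and 9387, 9365, 0, 0 and 0 calls over all genes.

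Signs changed only for values that passed no test. With a replicate left out, TBX3 between the Scr libraries ran from -0.25 to 0.048. For siPAI-1 against Scr in RT112, PPARG ran from -0.019 to 0.069, GATA3 from -0.050 to 0.25, KLF5 from -0.016 to 0.29, UPK1B from -0.040 to 0.10 and GRHL3 from -0.74 to 0.39. In UM-UC-3, PPARG ran from -0.051 to 0.26, TBX3 from -0.12 to 0.18, ELF3 from -0.12 to 1.96, KLF5 from -0.12 to 0.82 and UPK1B from -0.19 to 2.12. For the interaction, GRHL3 only repeated its RT112 range of -0.74 to 0.39. ELF3 ran from -1.85 to 0.23, KLF5 from -0.69 to 0.26, UPK1B from -2.09 to 0.22 and PPARG from -0.24 to 0.076. With a pseudocount of 1 TPM the interaction of UPK2 was 0.084 in place of -0.58. The cause of these changes was not tested. Depth limits UPK2, UPK3A and GRHL3 in UM-UC-3, at 0 to an estimated 4.0 reads a library.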
